A study of Mus musculus with 8 samples.

Results

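The Meis, Pbx and Pknox genes encode DNA-binding partners of Hox proteins, and 8 of them (Meis1, Meis2, Meis3, Pbx2, Pbx3, Pbx4, Pknox1 and Pknox2) are described here in muscle satellite cells that overexpressed Hoxa9. They were found as every non-control array probe annotated to 1 of these gene names, which gave 12 probes of the 55681 non-control probes on the array. Meis3 had 3 probes, Pbx3 and Pknox1 had 2 each, and the other genes had 1 each. All 12 were well above background on all 8 arrays, so none was lost to the filter on dim probes that left 40771 probes for testing.

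Satellite cells are the stem cells of skeletal muscle. They were sorted from the hindlimbs of young adult C57BL/6J mice (3 to 4 months of age), kept overnight in growth medium, and transduced with lentivirus that integrates stably into the genome. One group of 4 samples received Hoxa9-eGFP and the other group of 4 received eGFP alone as control, so both groups carry an integrated virus and the fluorescent protein. The cells were sorted for eGFP 5 days after transduction, and 0.1 µg of RNA per sample was labelled for a 1-colour Agilent array. The labels do not name the promoter that drives the transgene, nor do they say whether each sample was a separate animal or a pool, so the p-values measure the spread between samples that may be technical.

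The proteins belong to the TALE class of homeodomain proteins, named for a short loop of extra amino acids in the homeodomain. As background, Pbx proteins bind DNA together with Hox proteins, and Meis and Pknox (also called Prep) proteins bind Pbx and favour its presence in the nucleus. Meis1 also pairs directly with Hoxa9 and its neighbours and is known for acting with Hoxa9 in leukaemia, while in muscle cells Pbx and Meis proteins are known to help MyoD at the Myog promoter.

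Levels are log2 of the array signal relative to the 75th percentile of the same array, so 0 is the level of a fairly bright probe. They can be compared between arrays for 1 probe, but not between probes. Differences are log2 values of Hoxa9-eGFP minus eGFP from limma's moderated test, with p-values adjusted by the Benjamini-Hochberg method over all probes tested and a threshold of 0.05. The arrays had 75th percentiles of 514 to 779 signal units, 69.6% to 77.5% of non-control spots were well above background, and no spot was saturated. Pearson correlations over genes were 0.952 to 0.986 within the Hoxa9-eGFP group, 0.975 to 0.992 within the eGFP group and 0.931 to 0.969 between groups. The brighter of the Hoxa9 probes stood at 5.51 ± 0.213 in Hoxa9-eGFP cells and -0.47 ± 0.449 in eGFP cells (SD, n = 4 each), a 63.1-fold higher signal (limma adjusted p = 1.97e-05). The other Hoxa9 probe went the opposite way, at -3.43 ± 0.086 in Hoxa9-eGFP cells and -1.69 ± 0.194 in eGFP cells, with a difference of -1.74 (limma adjusted p = 0.00027; -1.03 with normexp background correction). Whether each probe reads the transgene, the cells' own Hoxa9 or both was not tested.

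The 5 probes on which the results turn are those of Pbx3, Pknox1 and Pknox2. The sequences below are the leading 30 of the 60 bases of each probe as the scanner files list them. They are shown because agreement between separate stretches of a gene is the check that the array itself offers. Pknox2 had only 1 probe, so this check was not available for it. No base is marked in capitals.
Pbx3 probe 1: caccctggattgaaaagtcttccttgtggt
Pbx3 probe 2: gcgctcacttactacctctgaacaatactc
Pknox1 probe 1: tttctgctttcttgattccagattgtcaaa
Pknox1 probe 2: acctaaactgtctttcttactggcagacac
Pknox2: tatccaccaaaccagtactgaatgtggcca

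In the mm9 coordinates of the file headers, the Pbx3 probes lie on the minus strand at chr2:34026999-34027058 and chr2:34027481-34027540. The Pknox1 probes lie on the plus strand at chr17:31744266-31744325 and chr17:31742878-31742937. The Pknox2 probe lies on the minus strand at chr9:36698570-36698629. Exon and UTR annotation of that build was not used here. No probe of 1 member shared more than 9 consecutive bases with a probe of another member over the full 60 bases, and probes of the same gene shared at most 8.

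Across the 12 probes, 2 passed the test as higher in Hoxa9-eGFP cells, both of Pknox1, and 3 passed as lower, 2 of Pbx3 and 1 of Pknox2. Of all 40771 probes, 6.82% were called higher and 6.65% lower. The arrays of the groups did not overlap for 7 of the 12 probes, against 22.3% of all probes tested. The 12 probes include several of 1 gene, which share their source. Taken by gene with the brightest probe of each, 1 of the 8 genes was called higher and 2 were called lower, against 7.83% and 7.42% of the 27109 genes tested. No Meis gene passed the test. In bulk RNA of this kind, fewer cells of a type and less RNA per cell cannot be told apart.

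**Figure D1:**
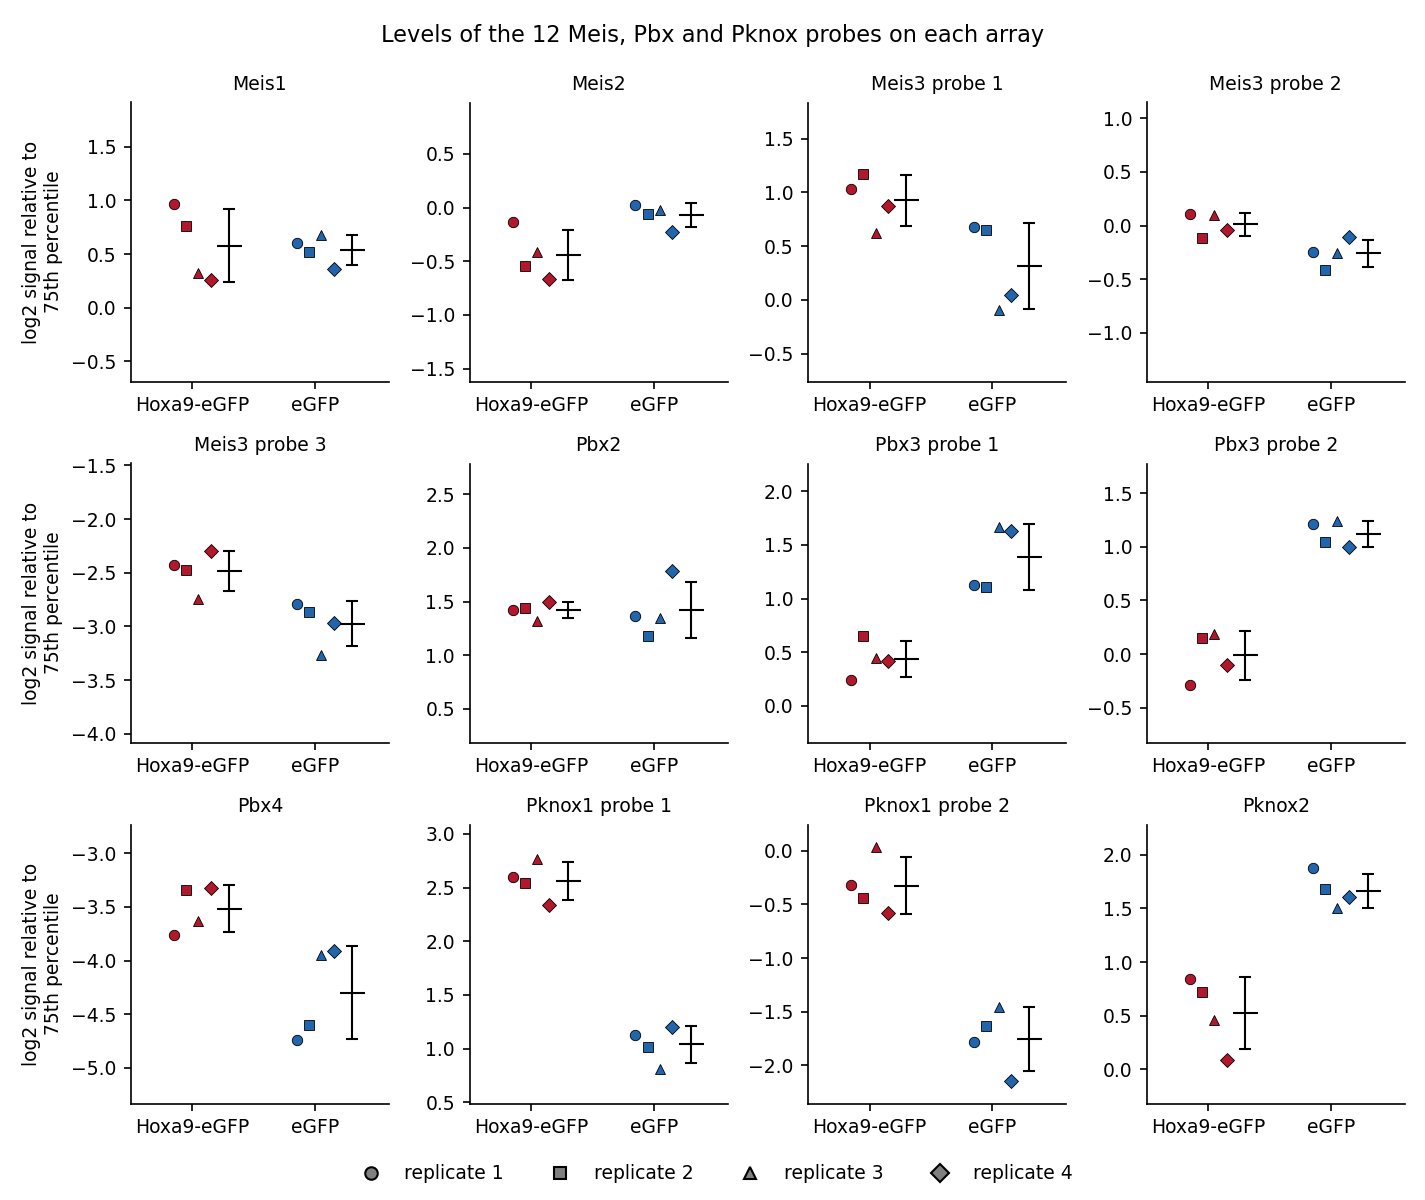
Level of each Meis, Pbx and Pknox probe (log2 signal relative to the array's 75th percentile, y axis, spanning the same height in every panel) on the 4 Hoxa9-eGFP arrays (red, left) and the 4 eGFP arrays (blue, right). Marker shapes give the replicate number, and black bars give the mean ± SD of 4 arrays. The Pknox1 probes lie higher, and the Pbx3 and Pknox2 probes lower, on all 4 Hoxa9-eGFP arrays than on any eGFP array.

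Pbx3, a cofactor that binds DNA with Hox proteins, fell in Hoxa9-eGFP cells on both of its probes. Probe 2 stood at -0.29, 0.15, 0.19 and -0.10 on the Hoxa9-eGFP arrays of replicates 1 to 4, against 1.21, 1.04, 1.24 and 0.995 on the eGFP arrays. Every Hoxa9-eGFP array was below every eGFP array. The difference was -1.13 (SE 0.161, 95% interval -1.4999 to -0.76), a signal 2.19-fold lower, with a limma adjusted p of 0.00258. Probe 1, annotated to another transcript of the gene, stood at 0.25, 0.65, 0.44 and 0.42 in Hoxa9-eGFP cells, against 1.13, 1.11, 1.67 and 1.63 in eGFP cells. The groups were again apart, with replicates 3 and 4 the higher ones in the eGFP group. The difference was -0.95 (SE 0.189, 95% interval -1.38 to -0.51), or 1.93-fold lower, with a limma adjusted p of 0.0128. The change on probe 1 and on probe 2 differed by 0.19 ± 0.177 (SE), with overlapping groups and an exact permutation p of 0.343 over arrays. On the 3 slides, each of which held both groups, the difference was -0.70, -1.22 and -1.19 for probe 1 and -1.23, -1.30 and -0.81 for probe 2.

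Pbx2, a broadly expressed relative of Pbx3, was measured by 1 probe at chr17:34733355-34733414. It stood at 1.43, 1.44, 1.32 and 1.497 in Hoxa9-eGFP cells, against 1.36, 1.18, 1.35 and 1.79 in eGFP cells. The groups overlapped, and the eGFP values enclosed all Hoxa9-eGFP values. The means were 1.42 ± 0.076 in Hoxa9-eGFP cells and 1.42 ± 0.258 in eGFP cells (SD, n = 4 each). The difference was -0.0025 (SE 0.164, limma adjusted p = 0.994), and its 95% interval of -0.38 to 0.37 leaves out a difference as large as the one estimated for Pbx3. Its sign turned positive with quantile normalization and with array weights.

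Pbx4, known mainly from the mouse testis, gave a weak signal of 24.5 to 52.4 units, with 23.1% of all tested probes dimmer. Its probe, at chr8:72393975-72394034, stood at -3.76, -3.34, -3.63 and -3.32 in Hoxa9-eGFP cells. In eGFP cells it stood at -4.74, -4.60, -3.94 and -3.92, with replicates 1 and 2 well under replicates 3 and 4. The groups did not overlap, and the difference was 0.78 (SE 0.237, 95% interval 0.24 to 1.33), but it did not pass the test (limma adjusted p = 0.0662). Over 18 alternative settings the difference ranged from 0.30 (with normexp background correction) to 0.91, with adjusted p-values from 0.0351 to 0.273, and it passed with quantile normalization and with the filter for probes above background on all 8 arrays. Within the slides it was 1.35, 0.39 and 0.28.

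The Pknox genes, which encode partners of Pbx proteins, moved in opposite directions. Pknox1, also known as Prep1 and needed for mouse embryonic development, rose on both of its probes. Probe 1 stood at 2.60, 2.54, 2.76 and 2.34 in Hoxa9-eGFP cells, against 1.13, 1.01, 0.81 and 1.20 in eGFP cells. The lowest Hoxa9-eGFP array was thus more than 1 log2 unit above the highest eGFP array. The difference was 1.52 (SE 0.158, 95% interval 1.16 to 1.88), a signal 2.87-fold higher (95% interval 2.23 to 3.69), with a limma adjusted p of 0.000622. Probe 2 stood at -0.32, -0.44, 0.04 and -0.58 in Hoxa9-eGFP cells, against -1.79, -1.63, -1.45 and -2.15 in eGFP cells. The groups were again apart, with a difference of 1.43 (SE 0.206, 95% interval 0.96 to 1.90), or 2.69-fold higher, and a limma adjusted p of 0.00279. The changes on the 2 probes differed by 0.09 ± 0.236 (SE; exact permutation p = 0.657). Within slides the difference was 1.27, 1.76 and 1.56 on probe 1 and 1.13, 1.07 and 2.19 on probe 2.

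Pknox2, or Prep2, fell on its only probe. It stood at 0.84, 0.72, 0.46 and 0.09 in Hoxa9-eGFP cells, against 1.88, 1.68, 1.502 and 1.61 in eGFP cells. All Hoxa9-eGFP arrays were lower, and their spread was wider, with an SD of 0.335 against 0.158 in eGFP cells. The difference was -1.14 (SE 0.197, 95% interval -1.59 to -0.69), or 2.20-fold lower, with a limma adjusted p of 0.00657. In the pairs of samples that share an experiment number it was -1.03, -0.96, -1.04 and -1.52, and within the slides -1.69, -0.72 and -1.14.

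**Figure D2:**
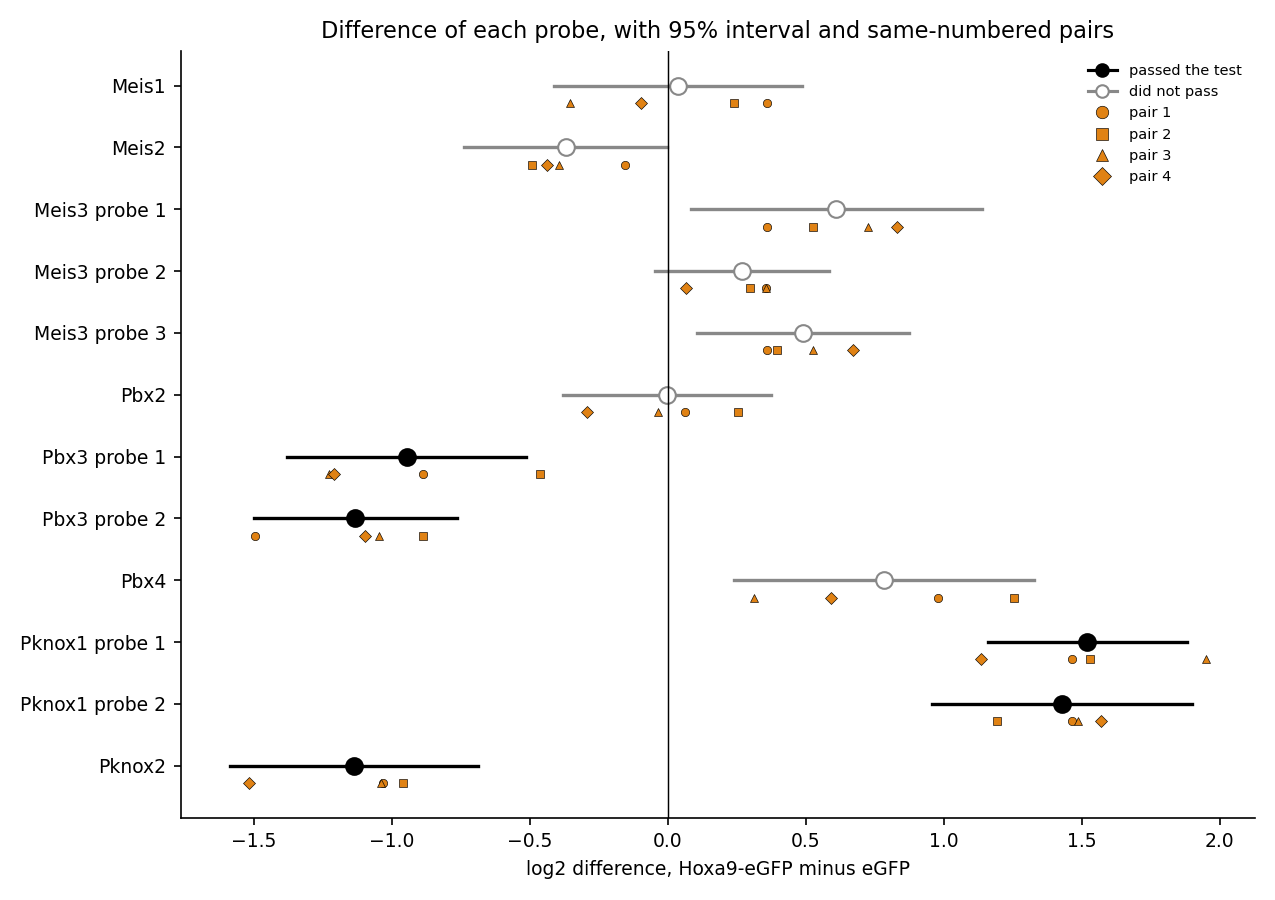
Difference of each probe, Hoxa9-eGFP minus eGFP (log2, x axis), with its 95% interval from limma (lines) and the differences of the 4 pairs of arrays with the same experiment number (orange markers below each line). Filled circles passed an adjusted p of 0.05 over all probes. All 4 pairs are positive for Pknox1, Pbx4 and Meis3 and negative for Pbx3, Pknox2 and Meis2, while Meis1 and Pbx2 have 2 pairs on each side of 0.

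Meis1, a leukaemia cofactor of Hoxa9, did not pass the test. Its probe at chr11:18780695-18780754 stood at 0.96, 0.76, 0.32 and 0.26 in Hoxa9-eGFP cells, against 0.60, 0.52, 0.68 and 0.36 in eGFP cells. The Hoxa9-eGFP arrays lay on both sides of the eGFP arrays, replicates 1 and 2 above them and replicates 3 and 4 below. The difference was 0.04 (SE 0.196, limma adjusted p = 0.921), with a 95% interval of -0.41 to 0.49. Its sign turned negative with the slide as a block, at -0.052.

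Meis2, which acts in limb and craniofacial development, was measured at chr2:115689641-115689700. It stood at -0.13, -0.55, -0.42 and -0.67 in Hoxa9-eGFP cells, against 0.02, -0.06, -0.02 and -0.23 in eGFP cells. The groups overlapped by 1 array of each, although all 4 pairs were lower in Hoxa9-eGFP cells. The difference was -0.37 (SE 0.161, 95% interval -0.74 to -0.002) and did not pass the test (limma adjusted p = 0.189). With normexp background correction it was -0.15.

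Meis3, a relative of Meis1 that is known from hindbrain patterning, had a positive difference on all of its 3 probes, none of which passed the test. Probe 1, at chr7:16771729-16771788, stood at 1.04, 1.17, 0.63 and 0.87 in Hoxa9-eGFP cells, against 0.67, 0.65, -0.10 and 0.04 in eGFP cells. Replicates 3 and 4 of the eGFP group were far under replicates 1 and 2, and the groups overlapped in that Hoxa9-eGFP replicate 3 was below the higher eGFP arrays. The difference was 0.61 (SE 0.230, limma adjusted p = 0.132). Probe 2, at chr7:16771439-16771498, had means of 0.01 ± 0.109 in Hoxa9-eGFP cells and -0.26 ± 0.126 in eGFP cells (SD, n = 4 each), a difference of 0.27 (SE 0.138, limma adjusted p = 0.266). Probe 3, at chr7:16764370-16764429, had groups that did not overlap, with -2.48 ± 0.186 in Hoxa9-eGFP cells and -2.97 ± 0.209 in eGFP cells, a difference of 0.49 (SE 0.168, limma adjusted p = 0.0998; 0.32 with normexp). All 4 same-numbered pairs were positive on each probe. With the experiment number as a replicate block the brightest Meis3 probe reached an adjusted p of 0.0451 over all genes and 0.0538 over all probes, and with normexp and no block it reached 0.0255 over all genes and 0.0269 over all probes, so its call depends on the block, on the background correction and, with the block, on which features are adjusted over.

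Differences between relatives were tested on the difference of the 2 levels within each array, with an exact two-sided permutation test over the 8 arrays, for which 0.0286 is the smallest possible p. The 12 pairs were the 5 pairs of probes of 1 gene and the 7 pairs of genes within the Meis, Pbx and Pknox families. The widest gap was in the Pknox pair, where the change of Pknox1 minus that of Pknox2 was 2.66 ± 0.161 (SE). Among the Pbx genes it was -1.73 ± 0.101 for Pbx3 minus Pbx4, 0.94 ± 0.152 for Pbx2 minus Pbx3 and -0.79 ± 0.191 for Pbx2 minus Pbx4. Among the Meis genes it was -0.98 ± 0.242 for Meis2 minus Meis3 and 0.41 ± 0.125 for Meis1 minus Meis2. In these 6 pairs the groups of arrays did not overlap and the exact p was 0.0286, the smallest possible. Adjusted by Benjamini-Hochberg over the 12 pairs it was 0.0571, which misses the threshold of 0.05. With this smallest possible p, a pair could pass only if more than 6 of the 12 pairs reached it, however far apart the groups were. No conclusion is therefore drawn from the miss. Meis1 minus Meis3 gave -0.57 ± 0.237 with overlapping groups (exact p = 0.0571, adjusted 0.098). For the 5 pairs of probes of 1 gene the difference in change was between -0.22 and 0.34 and the exact p between 0.229 and 0.657. This test does not use the pairing by experiment number. Taken pair by pair, the 3 pairs of Meis3 probes each differed with 1 sign in all 4 experiments, by 0.0067 to 0.76 for probe 1 minus probe 2, 0.000997 to 0.20 for probe 1 minus probe 3 and -0.61 to -0.0057 for probe 2 minus probe 3, with values near 0 in experiment 1. The Pbx3 probes differed with 2 positive and 2 negative pairs, and the Pknox1 probes with 3 positive and 1 negative. All 7 pairs of genes, Meis1 minus Meis3 included (-1.08 to -0.0032), had 1 sign in all 4 experiments. Pairs among the Meis genes, the Pbx genes or the Meis3 probes share probes, so their signs are not independent. No test was made on these signs.

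**Figure D3:**
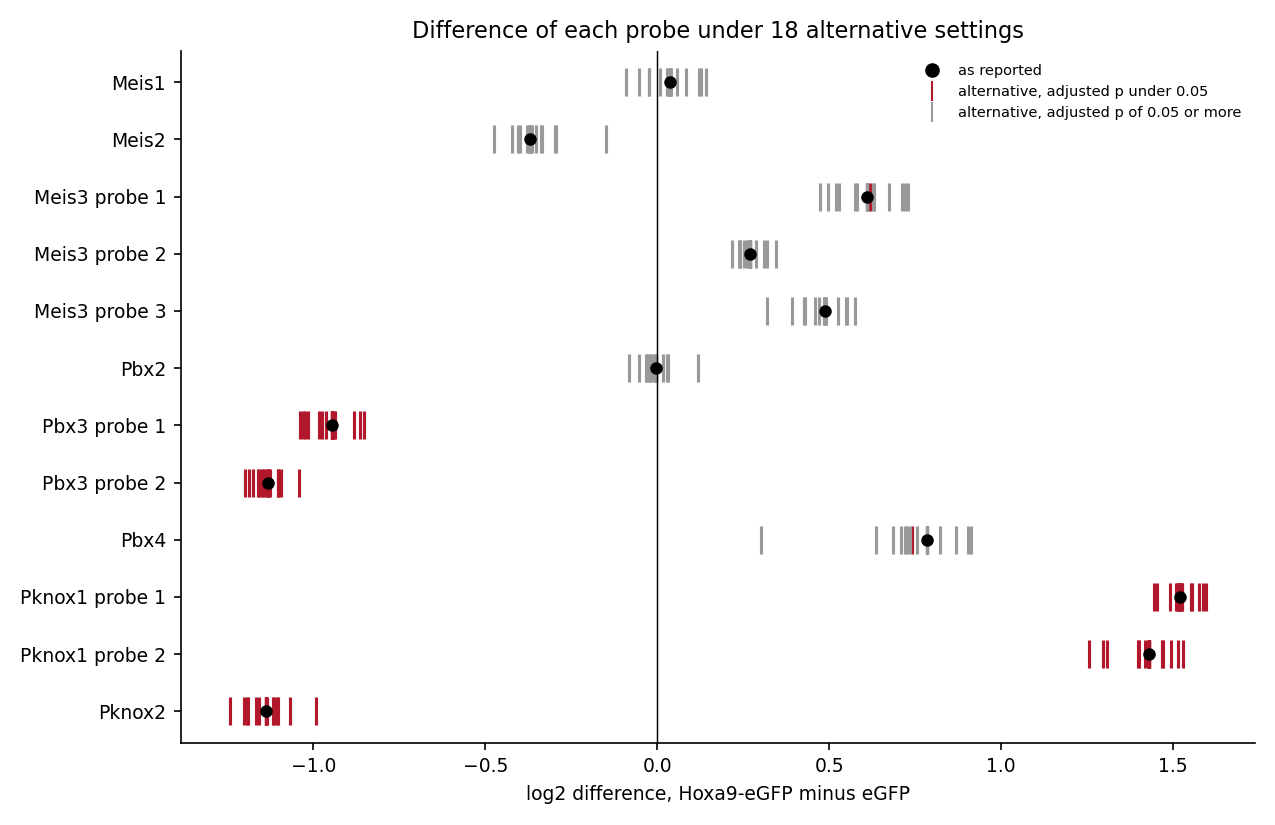
Difference of each probe (log2, Hoxa9-eGFP minus eGFP, x axis) as reported (black circles) and under 18 alternative settings (vertical ticks, red where the adjusted p was under 0.05). The 5 probes of Pbx3, Pknox1 and Pknox2 are red throughout, 2 of the Pbx4 ticks and 1 of the ticks of Meis3 probe 1 are red, and the ticks of Meis1 and Pbx2 lie on both sides of 0.

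The members were set beside 4 lists of related genes, tested over all genes with 1 probe each. The median difference was 0.02 over the 8 members and -0.07 over all 27109 genes. Of the other TALE homeobox genes, 1 of 9 rose and 1 fell, with a median of -0.17. Irx3, an Iroquois factor of limb and neural patterning, averaged 1.65 ± 0.318 in Hoxa9-eGFP cells and -0.18 ± 0.617 in eGFP cells (SD, n = 4 each), a difference of 1.83 (SE 0.316, limma adjusted p = 0.00576). Irx2, from the same family, averaged -2.68 ± 0.399 in Hoxa9-eGFP cells and -1.62 ± 0.359 in eGFP cells, a difference of -1.06 (SE 0.255, limma adjusted p = 0.0249). The Irx2 call was lost without Hoxa9-eGFP replicate 3 (adjusted p = 0.0545), without eGFP replicate 1 (0.0658) or without eGFP replicate 2 (0.0765), and with the mean of the gene's probes (0.145), and the difference was -0.61 with normexp. With the replicate block a further gene of this list passed as lower, Tgif1, a TALE repressor, at -0.60 (adjusted p = 0.0399, against 0.0755 without the block), and it was named after its values were seen.

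The Hox genes, the DNA-binding partners of these cofactors, had 32 of 38 listed members measured besides Hoxa9. Of these 18 fell and 2 rose, with a median of -1.15. Those of lowest adjusted p that are reported here were lower in Hoxa9-eGFP cells. The difference was -3.07 for Hoxa11, -2.11 for Hoxa7, -3.14 for Hoxd8 and -1.64 for Hoxc5, with limma adjusted p-values of 4.03e-05 to 0.000108. For Hoxd4 it was -2.78, with the probe well above background on 2 of the 4 Hoxa9-eGFP arrays and on all 4 eGFP arrays. With normexp background correction Hoxd4 gave -0.87, Hoxd8 -1.70 and Hoxc5 -0.95, and all 3 still passed. The 2 that rose, named after their values were seen, were Hoxd10 by 2.22 and Hoxb3 by 1.45. With normexp background correction Hoxd10 did not pass (0.43, adjusted p = 0.0781), and with the mean of its probes Hoxb3 did not pass (0.29, adjusted p = 0.262). Among those called lower, also named after their values were seen, Hoxc8 did not pass with normexp (-0.38, adjusted p = 0.232). Hoxc10 (adjusted p = 0.041) lost its call in several settings, such as quantile normalization (adjusted p = 0.0659).

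Of 18 partners and coregulators of TALE proteins, none rose and 2 fell by the limma test, and the median was -0.003. Myh10, a nonmuscle myosin heavy chain, averaged 0.06 ± 0.055 in Hoxa9-eGFP cells and 1.21 ± 0.071 in eGFP cells, a difference of -1.15 (SE 0.119, limma adjusted p = 0.00053). Gmnn, or geminin, an inhibitor of DNA replication licensing that also binds Hox proteins, had a difference of -1.41 (SE 0.158, limma adjusted p = 0.000739), and its second probe gave -0.96. Of 16 myogenic transcription factors none rose and 3 fell by the limma test, with a median of -0.09. Pax7, the satellite cell transcription factor, had a difference of -1.30 (adjusted p = 0.00401). Tcf3, which pairs with MyoD, had -0.82 (adjusted p = 0.0151) and Myf5, a myogenic regulator, had -1.62 (adjusted p = 0.0264). With the replicate block the last 2 calls were lost, at adjusted p = 0.0525 for Tcf3 and 0.0529 for Myf5. That fit also called Myog lower (-0.77, adjusted p = 0.037) and Mef2c higher (0.79, adjusted p = 0.0246), genes named after their values were seen. The Myf5 call was also lost when any 1 of Hoxa9-eGFP replicates 3 and 4 or eGFP replicates 1, 3 and 4 was left out, at adjusted p-values of 0.0602 to 0.0683, and its difference was -0.72 with normexp.

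**Figure D4:**
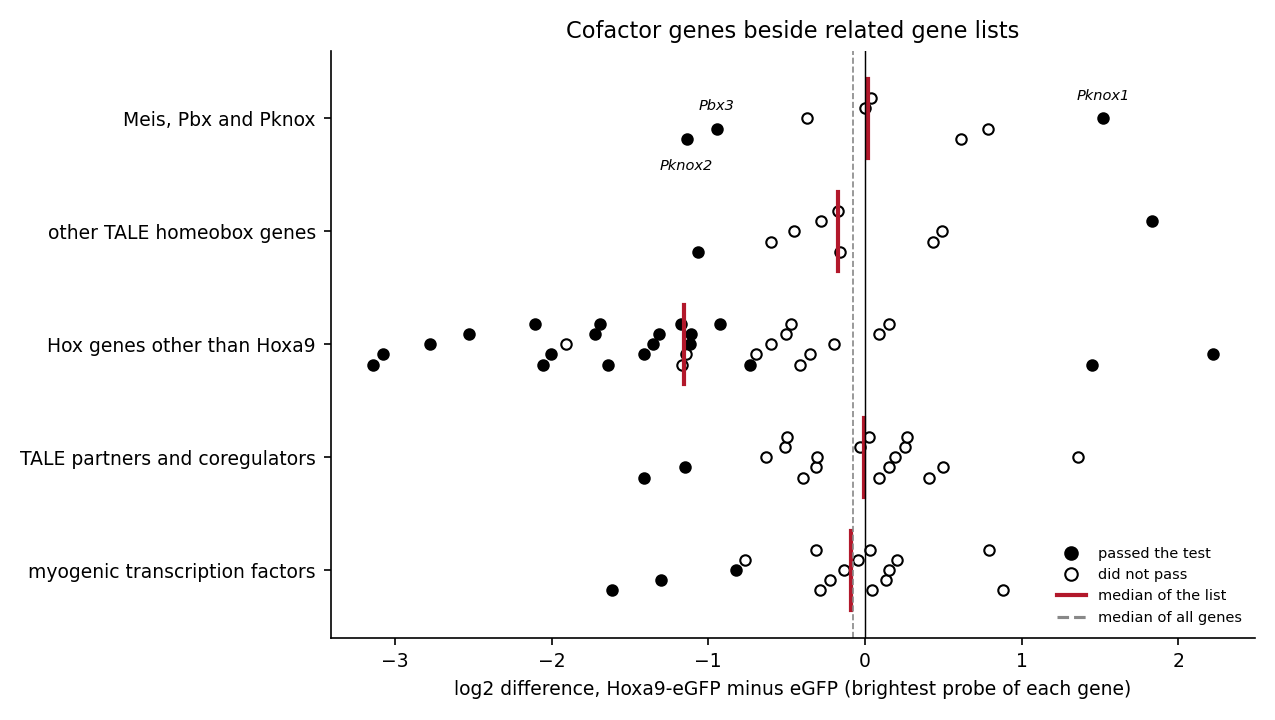
Difference of each measured gene (log2, Hoxa9-eGFP minus eGFP, x axis, brightest probe of each gene) for the Meis, Pbx and Pknox genes and for 4 lists of related genes. Filled circles passed an adjusted p of 0.05 over all genes, red bars are list medians, and the dashed line is the median of all genes at -0.07. The Hox genes other than Hoxa9 have a median of -1.15, and the other lists have medians between -0.17 and 0.02.

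Each gene that passed was set beside the RefSeq mRNA genes with the most similar pattern over the 8 arrays, by the root mean square distance between the profiles after centring each on its mean. This includes the difference between the groups, so nearness follows largely from a change of like size. Near to Pbx3 among 15804 genes were Ilf2, which encodes a subunit of a double-stranded RNA-binding complex, at a distance of 0.114 log2 units, and Ccdc88b at 0.136, where the median gene was at 0.633. Near to Pknox1 were Galnt18, a glycosyltransferase, at 0.141, and Arl4a, a small GTPase, at 0.142, with the median gene at 0.865. Nearest to Pknox2 were Dennd2a at 0.0934, Nop56, a protein of small nucleolar ribonucleoproteins, at 0.102, and Bnc2, a zinc finger protein, at 0.105, with the median gene at 0.684.

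Marker lists were read as the mean log2 level per array. The satellite cell and myoblast list (Pax7, Myod1 and Myf5 among 8 genes, all measured) spanned 2.27 to 2.65 in Hoxa9-eGFP cells and 3.42 to 3.61 in eGFP cells, and 5 of its 8 genes fell. Each of the 8 genes was well above background on all 4 arrays of each group, so RNA of these markers was detected in both groups. The fibroblast and fibro-adipogenic list (5 genes, all measured) spanned 0.30 to 2.26 in Hoxa9-eGFP cells and -0.66 to 0.69 in eGFP cells. In this list 1 of 5 genes rose, Ly6a, by 4.55, while Thy1 gave 1.62, Col1a1 0.97, Dcn 0.13 and Pdgfra -0.63 and none of these passed. The median of the list was 0.97, with 4 of 5 genes above 0. In both groups replicates 3 and 4 carried more of this list than replicates 1 and 2. Among the eGFP arrays Pbx4 and Pbx3 probe 1 (both higher in replicates 3 and 4) divided the same way. So did Pknox2 and Meis3 probes 1 and 3 (lower there). On the Hoxa9-eGFP arrays Pknox2, Meis3 probe 1 and Meis1 divided so (all lower in replicates 3 and 4), but Pbx4, Pbx3 probe 1 and Meis3 probe 3 did not. The other member probes divided this way in neither group. The probes that divided were named after their values were seen. The division also coincides with the slides within each group. Replicates 1 and 2 shared slide 1 in the eGFP group and slide 2 in the Hoxa9-eGFP group, with replicates 3 and 4 on other slides. The smooth muscle list spanned -0.28 to 0.88 in Hoxa9-eGFP cells and -0.65 to 0.12 in eGFP cells, with 1 of 5 genes higher (Cnn1) and 1 lower (Acta2). The adipocyte list had 2 of 3 genes measured and spanned -3.06 to -2.23 in Hoxa9-eGFP cells and -5.25 to -3.43 in eGFP cells, with Fabp4 higher by 3.50 and Adipoq at -0.22, which did not pass (limma adjusted p = 0.742).

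No gene passed the limma test in the endothelial list (3 of 5 measured), the immune list (3 of 5) or the Schwann cell list (3 of 4). Their array means spanned -2.14 to -0.68, -0.47 to 0.65 and -3.00 to -1.57 in Hoxa9-eGFP cells, against -1.02 to -0.18, -0.51 to 0.34 and -1.58 to -1.36 in eGFP cells. Ptprc, the defining marker of blood cells, was well above background on 2 Hoxa9-eGFP arrays and on no eGFP array, and Tek, Emcn, Lyz2, S100b and Plin1 were also too dim to be tested. Whether the cell types read by these lists had a part in the differences of the Meis, Pbx and Pknox genes was not tested.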

How the data were processed

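Probe intensity in 8 one-colour arrays came from the deposited scanner output. It was made by the authors with Agilent Feature Extraction 10.7.3.1, per the file headers, with background subtracted and no scaling between arrays. The deposited table of processed values was read as a score, since 86.1% to 87.3% of cells had lost the decimal point. With the point put back it matched log2 signal shifted by array, and it served only as an alternative.

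Signals were taken to log2 and each array's 75th percentile was subtracted. Marked spots were left out, which removed 180 of 55681 probes. Probes well above background on at least 4 arrays were kept. Names of 1710 of 27650 accession-matched probes were updated from a RefSeq table. The two-sided group comparison used lmFit and eBayes of limma 3.58.1 (R 4.3.3) and was tested on simulated data. Genes outside the members were named by lowest adjusted p, up to 6 a list, and by nearest profile, 3 a member. Of the genes this rule takes, some are not reported here for reasons unrelated to their values.

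The experiment numbers were taken to pair the samples, because arrays with the same number departed from their group means together, with correlations of 0.143, 0.228, 0.129 and 0.186, each over the limit of 0.1. Of the other pairs, 2 also exceeded it, at 0.188 (Hoxa9-eGFP replicate 3 with eGFP replicate 4) and 0.137 (Hoxa9-eGFP replicate 4 with eGFP replicate 3). The main fit compared the groups only and did not use the pairing by experiment number, which entered as the replicate block among the other settings. Slides held 1, 2 and 1 Hoxa9-eGFP arrays and 2, 1 and 1 eGFP arrays. Members, lists and tests were chosen with earlier results of these data known.

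Other settings tried were the slide or the replicate as a block, normexp background correction (offset 50), quantile or median scaling, array weights, an intensity trend with robust prior, no or a stricter filter, the deposited table, averaging the probes of a gene, and leaving out each array.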

Additional observations from a re-analysis of the deposited data

How the results depend on the processing

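The 5 called probes of Pbx3, Pknox1 and Pknox2 kept their direction and their call in all 18 alternatives. With the replicate block their limma adjusted p-values were larger than in the main fit. They were 0.0317 and 0.0129 for Pbx3 probes 1 and 2, 0.00846 and 0.0054 for Pknox1 probes 1 and 2, and 0.0127 for Pknox2. Counts of member probes called stayed at 2 higher and 3 lower when each array was left out, and counts of member genes ranged over 1 to 2 higher and 2 lower. The member genes called higher numbered 2 with quantile normalization, the filter on all 8 arrays and array weights (Pknox1 and Pbx4), and 2 with normexp and the replicate block (Pknox1 and Meis3). Without eGFP replicate 4 they were 2 as well, Pknox1 and Pbx4 (adjusted p = 0.0493 for Pbx4). The sign of Meis1 turned with the slide as a block (-0.052), and its difference ranged from -0.092 to 0.14 when 1 array was left out. That of Pbx2 turned with quantile normalization (0.0298) and array weights (0.016), with a range of -0.0817 to 0.12 when 1 array was left out. Neither gene had a call to lose. Leaving out 1 array gave 1982 to 2416 probes higher and 1668 to 2433 lower, and 1582 to 1902 genes higher and 1289 to 1893 lower, the lowest counts of lower calls being those without eGFP replicate 2.

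Among the lists, other TALE genes called lower numbered 2 with the replicate block and with the intensity trend (Irx2 and Tgif1) and 0 with the mean of probes. When 1 array was left out they ranged over 1 to 2 higher and 0 to 1 lower. Hox genes called higher numbered 1 with normexp, with the mean of probes and with the stricter filter, which left 27 Hox genes. Those called lower ranged from 16 with the stricter filter to 19 with array weights. Partners and coregulators called higher numbered 2 with quantile normalization and normexp and 1 with the trend and array weights, and those called lower numbered 5 with normexp and 4 with the trend, array weights and the mean of probes. Myogenic factors called higher numbered 1 with the replicate block. Apart from the calls of Meis3, Tgif1, Tcf3, Myf5, Myog and Mef2c given in the report, the replicate block changed no call among the members and the lists of related genes. With the slide as a block the call of Hoxc10 was lost (adjusted p = 0.0624). Calls of marker list genes were not compared between settings. The cause of these shifts was not tested.

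Precision is limited by 4 arrays a group. Among the probes whose sign did not turn, the differences of Pbx4 (0.30 to 0.91) and Meis2 (-0.47 to -0.15) moved by the widest ratios over the alternatives, both with their smallest size under normexp. For each of the 12 probes the highest and lowest array of each group was tested for standing apart by Dixon's rule, and none of the 24 groups held such an array.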
